A study of Rattus norvegicus with 18 samples.

Results

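The genes described here are 9 non-collagen matrix and fibroblast genes of the rat lung: Tnc, Spon2, Eln, Fbn1, Fn1, Dcn, Lox, Wif1 and Scn7a. Every probe set that the array annotation assigns to one of these symbols alone was taken, which gave 9 of 13811 named genes and 12 of 31256 probe sets, 11 on an Affymetrix array type called A here and 1 on a second type called B. Eln, Fbn1 and Lox have a pair of probe sets each, and the other genes have 1. Probe sets of the same gene read the same RNA and are not replicates.

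Lung tissue came from male Sprague-Dawley rats that inhaled mainstream smoke of the reference cigarette 2R4F nose-only, or received a sham exposure. Sessions lasted 2 h, 5 days weekly, and went on through 13 weeks. The smoke held total particulate matter (TPM) at 300 or 600 µg/l. Lungs were dissected at 2, 6 or 20 h of recovery from the final session. Each of the 9 conditions (sham, 300 and 600 µg/l at each recovery time) has 1 array of each type, and the labels do not give the number of animals behind an array or their age. Exposures were therefore compared over the 3 recovery times (n = 3 arrays each), and the error holds array noise and any change of the smoke effect with time together. Nothing in the labels shows that the arrays stand for separate animals, so p-values rest on the spread among these arrays, which may be technical.

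Some labels and arrays need care. For the 4 smoke samples at 20 h, on both types, a further label reads sham although title and source name give the smoke level, and the 600 µg/l values of Spon2, Wif1, Scn7a, Eln, Fbn1 and Lox are also given without the 20 h conditions. The B array labelled sham at 2 h was unusually like that of 300 µg/l at the same time (r = 0.56 of their deviations across probe sets, against at most 0.12 in the other 35 B pairs), which among these genes touches the B probe set of Eln alone. Of 20 fibroblast markers, 18 were on the arrays and 15 were bright enough to test, while Fap and Thy1 stayed under the brightness filter on every array. In whole tissue, fewer cells of a type and less RNA per cell cannot be told apart.

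The lung's interstitium is held together by elastic fibres, in which elastin (Eln) is deposited on microfibrils of fibrillin-1 (Fbn1) and cross-linked by lysyl oxidase (Lox). Fibronectin (Fn1) is an adhesive glycoprotein that cells bind through integrins, and decorin (Dcn) is a small proteoglycan that coats collagen fibrils and binds TGF-beta. Tenascin C (Tnc) and spondin 2 (Spon2) are matricellular proteins, which modulate how cells attach to the matrix more than they build it. Wif1 is a secreted inhibitor that binds Wnt ligands, and Scn7a encodes an atypical sodium channel, known as a sodium sensor in the brain, that is also transcribed in stromal cells of the lung.

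At 600 µg/l, Spon2, Wif1, Scn7a and Tnc passed the test against sham, all lower. Tnc reached the brightness filter in its sham arrays alone, and the calls of Wif1, Scn7a and Tnc were lost under some other settings. The 250 bases before the annotated start of the genes that passed are shown (RefSeq, build GRCr8, each written along its gene's strand). Matches to 4 short motifs are in capitals.
Tnc, chr5:82476132-82476381, minus strand: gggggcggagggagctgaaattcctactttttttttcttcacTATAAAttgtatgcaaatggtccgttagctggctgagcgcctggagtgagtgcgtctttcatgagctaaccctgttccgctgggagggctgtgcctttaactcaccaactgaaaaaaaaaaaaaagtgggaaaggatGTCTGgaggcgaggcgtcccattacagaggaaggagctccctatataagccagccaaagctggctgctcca
Spon2, chr14:81736466-81736715, plus strand: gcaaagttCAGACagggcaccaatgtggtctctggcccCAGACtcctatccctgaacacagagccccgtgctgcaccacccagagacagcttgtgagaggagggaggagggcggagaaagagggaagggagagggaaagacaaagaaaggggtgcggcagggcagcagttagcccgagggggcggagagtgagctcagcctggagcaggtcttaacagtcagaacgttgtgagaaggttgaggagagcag
Wif1, chr7:58433329-58433578, plus strand: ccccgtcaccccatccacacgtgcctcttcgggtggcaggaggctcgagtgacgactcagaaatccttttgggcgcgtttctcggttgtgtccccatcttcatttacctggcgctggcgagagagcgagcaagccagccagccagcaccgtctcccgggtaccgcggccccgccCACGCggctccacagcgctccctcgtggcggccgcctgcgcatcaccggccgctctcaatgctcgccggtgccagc
Scn7a, chr3:71846285-71846534, minus strand: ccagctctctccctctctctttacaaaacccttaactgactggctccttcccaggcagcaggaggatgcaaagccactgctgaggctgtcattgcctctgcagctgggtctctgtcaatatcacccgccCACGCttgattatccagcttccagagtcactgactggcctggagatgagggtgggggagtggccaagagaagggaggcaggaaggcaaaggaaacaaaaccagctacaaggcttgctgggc
The letters searched, on both strands, were TATAAA (the TATA box), GCGTG (the core bound by the aryl hydrocarbon receptor with ARNT), GTCTG (a SMAD-binding element) and TGANTCA (the AP-1 element), and no matches overlapped. TATAAA occurred in Tnc, its first base 208 bases before the start, and in 12.9% of 33469 promoters of the same length. Only these exact letters were searched, so that match need not be the TATA box of Tnc. The similar letters tatataa, nearer the start of Tnc, were not marked. GCGTG occurred, on the other strand, 76 bases before the start of Wif1 and 121 bases before that of Scn7a, and in 25.9% of promoters. GTCTG occurred 71 bases before the start of Tnc and, on the other strand, 242 and 212 bases before that of Spon2, and in 42.9% of promoters. TGANTCA, found in 6.3% of promoters, matched none of these windows. Besides these, RefSeq's table held a promoter of Fbn1, for 5 of the 9 genes in all. A match describes the letters only.

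Whether repeated inhalation of the denser smoke left these RNAs at other levels was asked by setting 600 µg/l against sham. Of the 12 probe sets, 4 passed an adjusted p of 0.05, all lower, where 0.514% of the 19638 probe sets tested passed in either direction and 0.0866% passed lower. The 4 are the probe sets of Spon2, Wif1, Scn7a and Tnc. Tnc reached the brightness filter in its sham arrays alone, so that it had to be lower with smoke to be tested as it was, and the other 3 passed the filter on every array. The mean change was below 0 for 11 of the 12, against 51.8% of all probe sets. The 3 arrays at 600 µg/l lay below the 3 sham arrays without overlap for the same 4, which 7.42% of all probe sets did. Values below are signals in arbitrary units, comparable between arrays but not between probe sets, and changes are differences of log2(signal + 50), which understate the signal ratio of dim probe sets.

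Spon2 fell most. Its signal at 2, 6 and 20 h was 1345.9, 787.7 and 1524.7 in sham, 453.1, 461.2 and 743.3 at 300 µg/l, and 365.9, 406.6 and 573.1 at 600 µg/l. The lowest sham array, at 6 h, was still above every smoke array, and at each recovery time the order was sham, then 300, then 600 µg/l. The mean was 1219 ± 384 (SD, n = 3) in sham, 552 ± 165 at 300 µg/l and 448 ± 110 at 600 µg/l. Spon2 fell by 1.32 on the log2 scale at 600 µg/l (SE 0.15, 95% interval -1.65 to -0.99, limma adjusted p = 0.0035), a 2.50-fold difference. The call held under all 22 alternative settings, with changes of -1.52 to -1.10 and adjusted p of 0.0019 to 0.047.

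Tnc was the dimmest of the 12 probe sets. Its signal at 2, 6 and 20 h was 362.2, 344.3 and 249.9 in sham, 163.0, 173.1 and 174.5 at 300 µg/l, and 128.1, 118.4 and 181.6 at 600 µg/l. All 6 smoke arrays lay under 183.8, the brightness filter of type A, so the probe set was tested only because of its 3 sham arrays and the size of its difference is uncertain. Tnc fell by 0.94 at 600 µg/l (SE 0.17, 95% interval -1.31 to -0.56, limma adjusted p = 0.047), from a mean of 319 ± 60 to 143 ± 34 (SD, n = 3 each). Its difference was -1.21 and -1.23 at 2 and 6 h and -0.37 at 20 h, where the 300 µg/l array was slightly lower than the 600 µg/l array. Over 17 settings the change ran from -1.14 to -0.60, the latter with 4 times the pseudocount. The call was lost under 10 of them, the adjusted p being 0.19 without 600 µg/l at 2 h and 0.18 without 600 µg/l at 6 h. Without a sham array or the 20 h conditions too few arrays pass the filter for a test.

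Wif1 was lower in every smoke array than in the sham array of its time. Its signal at 2, 6 and 20 h was 1413.5, 1891.3 and 1792.7 in sham, 846.0, 1087.8 and 1321.7 at 300 µg/l, and 811.0, 1009.2 and 1361.4 at 600 µg/l. The highest smoke arrays, both at 20 h, stayed below the lowest sham array, at 2 h, so the groups did not overlap. Wif1 fell by 0.67 at 600 µg/l (SE 0.10, 95% interval -0.90 to -0.45, limma adjusted p = 0.020), a 1.60-fold difference, from a mean of 1699 ± 252 to 1060 ± 279 (SD, n = 3 each). At 300 µg/l its value was nearly as large, -0.63 (SE 0.10, adjusted p = 0.077), and the difference between the smoke levels was -0.04 (95% interval -0.26 to 0.18).

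Scn7a showed the same order of exposures as Spon2 at each time. Its signal at 2, 6 and 20 h was 1809.2, 2104.1 and 1948.1 in sham, 1154.0, 1571.8 and 1620.0 at 300 µg/l, and 958.6, 1255.8 and 1498.4 at 600 µg/l. Every smoke array was below every sham array, and the smoke arrays at 2 h were the lowest of their exposure. Scn7a fell by 0.66 at 600 µg/l (SE 0.10, 95% interval -0.88 to -0.43, limma adjusted p = 0.022), a 1.58-fold difference, from a mean of 1954 ± 148 to 1238 ± 270 (SD, n = 3 each). The order sham, 300, 600 µg/l at all 3 times was held by 2 of the 12 probe sets, Spon2 and Scn7a, and by 1.18% of all probe sets.

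Single arrays decided whether Wif1 and Scn7a passed. Each lost its call under 7 of 22 settings, with changes of -0.82 to -0.59 for Wif1 and -0.80 to -0.55 for Scn7a. Without sham at 2 h the adjusted p was 0.094 for Wif1 and 0.093 for Scn7a, and without sham at 6 h it was 0.10 and 0.11. Without 600 µg/l at 2 h it was 0.11 and 0.12, and without 600 µg/l at 6 h again 0.11 and 0.12. With all arrays kept, the limma adjusted p was 0.071 and 0.085 with no filter. It was 0.07 and 0.073 with only sham and 600 µg/l in the fit. Wif1 also lost its call with a linear dose trend (adjusted p = 0.064), and Scn7a with no intensity trend (adjusted p = 0.062). Without the 20 h conditions, whose labels conflict, both passed, at -0.82 (adjusted p = 0.027) and -0.80 (adjusted p = 0.033), as did Spon2 at -1.31 (adjusted p = 0.047).

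**Figure D1:**
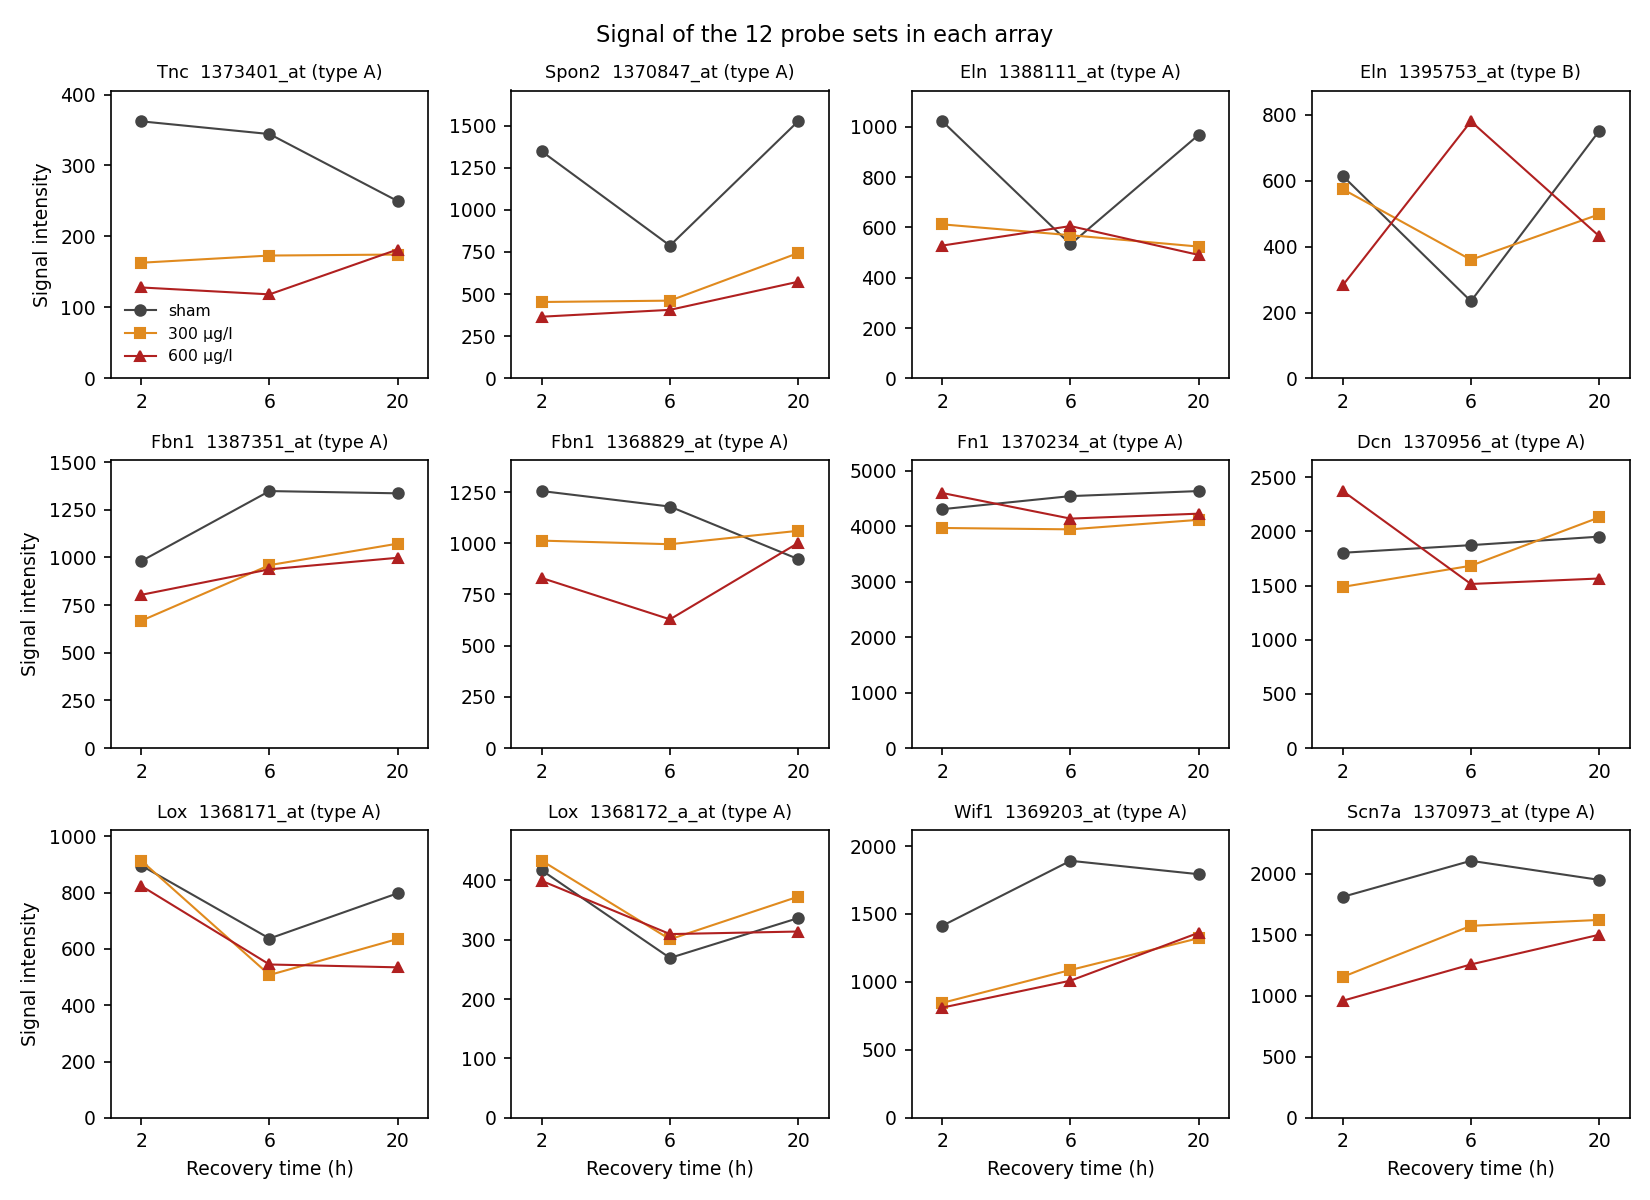
Signal (arbitrary units, linear axis from 0) of the 12 probe sets against recovery time in hours (times equally spaced), 1 point per array, with lines joining the arrays of an exposure (sham, 300 and 600 µg/l). For Spon2, Wif1, Scn7a and Tnc every smoke point lies below every sham point, while for Fn1 and Dcn the lines cross or run close together.

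Of the elastic fibre genes among the 9, Eln, Fbn1 and Lox, none passed. The A probe set of Eln read 1021.3, 532.9 and 967.2 at 2, 6 and 20 h in sham, 612.0, 568.9 and 523.8 at 300 µg/l, and 527.8, 605.2 and 490.7 at 600 µg/l. The 6 smoke arrays spanned a narrow range, and it was the sham array at 6 h that lay among them, far below the other sham arrays. Its change at 600 µg/l was -0.54 (SE 0.19, adjusted p = 0.33), and single arrays moved it both ways. Without sham at 6 h it was -0.86 (SE 0.10, adjusted p = 0.016), without sham at 20 h -0.37 (adjusted p = 0.64), without sham at 2 h -0.40 (adjusted p = 0.63) and without the 20 h conditions -0.36 (adjusted p = 0.75). The B probe set of Eln read 614.6, 234.4 and 750.9 in sham, 574.5, 360.2 and 498.0 at 300 µg/l, and 283.0, 780.6 and 432.4 at 600 µg/l. Here the sham array at 6 h was the lowest of all 9 and the 600 µg/l array at 6 h the highest. Over all times the B probe set stood at -0.06 (SE 0.39, 95% interval -0.94 to 0.82), so a change as large as that of the A probe set lies within its interval. Without the 20 h conditions it was 0.27 (adjusted p = 0.92). It was 0.19 (adjusted p = 0.93) without the B array labelled sham at 2 h, which was unusually like that of 300 µg/l.

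For Fbn1 the probe sets differed in where the smoke arrays lay. The brighter, 1387351_at, read 981.2, 1348.0 and 1336.2 at 2, 6 and 20 h in sham, 668.2, 959.6 and 1072.1 at 300 µg/l, and 804.0, 937.7 and 998.1 at 600 µg/l. Of the 12 probe sets, 5 had both smoke arrays below sham at each time, as did 5.39% of all. They were this one, Spon2, Wif1, Scn7a and Tnc, the last tested through its sham arrays alone. For this Fbn1 probe set the ranges of the exposures overlapped. The change was -0.39 at 600 µg/l (SE 0.09, adjusted p = 0.13, 0.077 to 0.42 over the settings) and -0.43 at 300 µg/l (adjusted p = 0.25). The other, 1368829_at, read 1255.0, 1179.3 and 923.0 in sham, 1013.0, 995.5 and 1060.9 at 300 µg/l, and 830.3, 628.7 and 1001.3 at 600 µg/l. There the smoke arrays were below sham at 2 and 6 h and above it at 20 h, and the mean change at 600 µg/l was -0.44 (SE 0.15, adjusted p = 0.34). It was -0.71 without the 20 h conditions (adjusted p = 0.096), -0.65 without sham at 20 h (adjusted p = 0.12) and -0.26 without 600 µg/l at 6 h (adjusted p = 0.62). The brighter probe set stayed at -0.39 without the 20 h conditions (adjusted p = 0.42).

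Lox differed more between times than between exposures. Probe set 1368171_at read 895.8, 636.8 and 797.5 at 2, 6 and 20 h in sham, 912.9, 507.3 and 635.2 at 300 µg/l, and 823.3, 544.6 and 534.5 at 600 µg/l. The dimmer 1368172_a_at read 416.9, 269.4 and 336.5 in sham, 433.1, 300.8 and 372.6 at 300 µg/l, and 399.2, 309.6 and 313.9 at 600 µg/l. In both, the 3 arrays at 2 h were the highest. Against sham, the changes at 600 µg/l were -0.29 (SE 0.11, adjusted p = 0.37) and 0.01 (95% interval -0.20 to 0.22), and neither passed. Without the 20 h conditions they were -0.16 (adjusted p = 0.80) and 0.06 (adjusted p = 0.95).

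Fn1 was the most even of the 12 probe sets, its highest array being 1.18 times its lowest. Its signal at 2, 6 and 20 h was 4309.4, 4544.8 and 4635.8 in sham, 3970.2, 3945.2 and 4116.7 at 300 µg/l, and 4600.6, 4139.2 and 4228.2 at 600 µg/l. The 3 arrays at 300 µg/l lay below all others, while the 600 µg/l arrays overlapped sham. The change was -0.16 at 300 µg/l (SE 0.07, adjusted p = 0.86) and -0.06 at 600 µg/l (95% interval -0.21 to 0.09), so a difference of the size seen for Spon2 or Wif1 lies outside the interval.

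Dcn showed no order of exposures. Its signal at 2, 6 and 20 h was 1802.8, 1873.2 and 1951.5 in sham, 1488.1, 1683.1 and 2128.7 at 300 µg/l, and 2372.3, 1514.8 and 1565.3 at 600 µg/l. The sham arrays were close together, the highest array was 600 µg/l at 2 h and the lowest 300 µg/l at 2 h. The change at 600 µg/l was -0.07 (SE 0.17, 95% interval -0.44 to 0.30), which leaves room for a modest fall or rise.

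At 300 µg/l, which asks the same of the lower concentration and shares its sham arrays with the comparison above, none of the 12 probe sets passed by limma, where 0.0458% of all did. At an unadjusted p under 0.05 there were 7 of the 12, against 5.53% of all. Spon2 stood closest, at -1.06 (SE 0.15, 95% interval -1.38 to -0.73, adjusted p = 0.056), and passed under 5 of 21 settings, among them leaving out sham at 6 h or 600 µg/l at 6 h (adjusted p = 0.042 in each). Wif1 passed under 3 of 21, among them leaving out sham at 20 h (-0.76, adjusted p = 0.039). Tnc stood at -0.73 (SE 0.17, adjusted p = 0.32), Scn7a at -0.43 (SE 0.10, adjusted p = 0.34) and the A probe set of Eln at -0.48 (SE 0.19, adjusted p = 0.82). The 300 µg/l arrays lay below all sham arrays for 5 of the 12 probe sets, those of Tnc, Spon2, Wif1, Scn7a and Fn1, and for 4.32% of all. Tnc, counted here and in the 7 above, was tested through its sham arrays alone. It thus entered the test because it was high in sham, and its lower smoke arrays are no support.

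Between the smoke levels none of the 12 passed, where 0.0204% of all did, and 1 had an unadjusted p under 0.05 (5.05% of all). That one was Scn7a, at -0.23 for 600 against 300 µg/l (SE 0.10, adjusted p = 0.98). Spon2 stood at -0.26 (95% interval -0.59 to 0.06) and Tnc at -0.21 (95% interval -0.58 to 0.17), intervals that include no difference as well as a further fall. In a moderated F test over all exposures, Spon2 (adjusted p = 0.0085) and Wif1 (adjusted p = 0.036) passed, 2 of the 12, against 0.214% of all. Scn7a (adjusted p = 0.068) and Tnc (adjusted p = 0.11) did not. Without the 20 h conditions the count was 0.

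**Figure D2:**
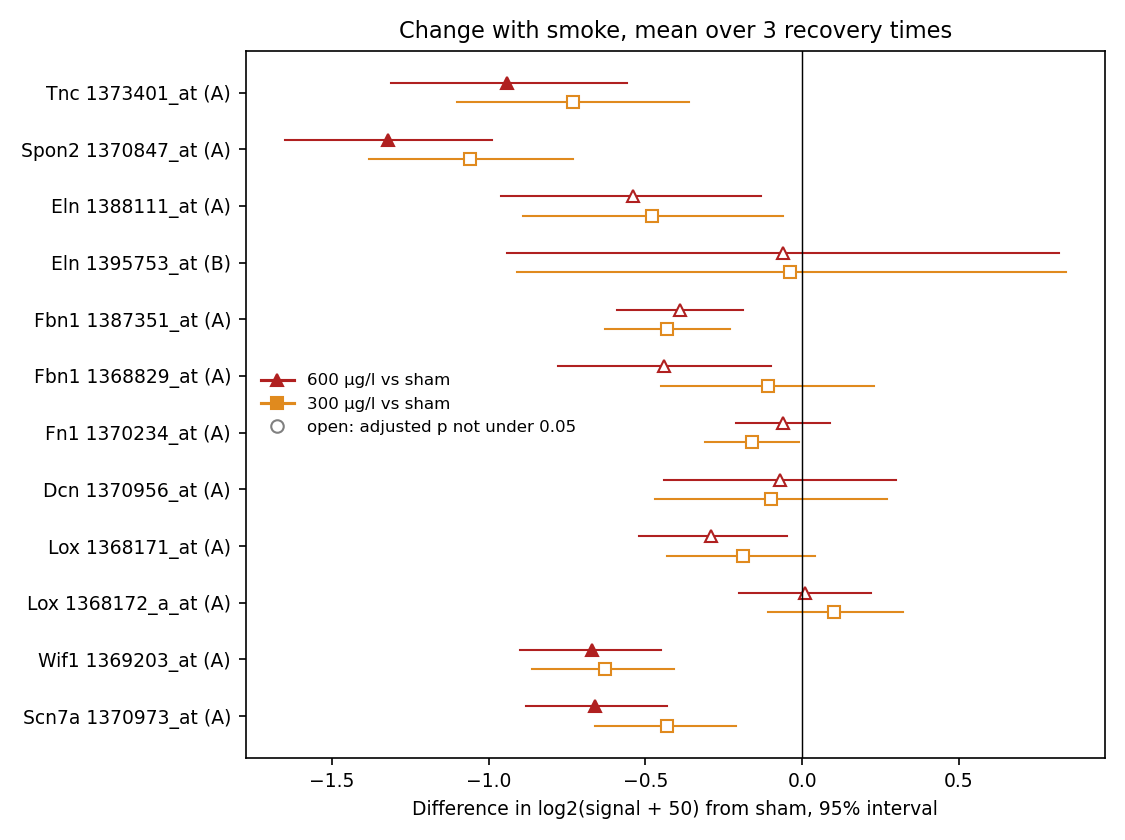
Change against sham (difference of log2(signal + 50)) of the 12 probe sets at 300 and 600 µg/l, as the mean over the 3 recovery times with its 95% interval from limma. Spon2 is lowest at -1.32 for 600 µg/l, followed by Tnc at -0.94, Wif1 at -0.67 and Scn7a at -0.66, and the intervals of Fn1, Dcn, the B probe set of Eln and Lox 1368172_a_at at 600 µg/l include 0.

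The recovery comparisons ask whether the lung's RNA differs with the time since the last exposure, whatever the exposure. Recovery time may go together with time of day, and these comparisons cannot tell them apart. None of the 12 probe sets passed at 6 h against 2 h, where 0.0153% of all did, and 5 had an unadjusted p under 0.05 (10.8% of all). The most different were the Lox probe sets, at -0.60 (SE 0.11, adjusted p = 0.11) and -0.44 (SE 0.10, adjusted p = 0.18). Their arrays at 6 h lay below those at 2 h without overlap, as 8.15% of all probe sets did. The brighter Fbn1 probe set (0.38), Wif1 (0.35) and Scn7a (0.34) stood the other way, higher at 6 h than at 2 h in each of the 3 exposures, as 16% of all probe sets were, with adjusted p of 0.21 to 0.28.

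At 20 h against 2 h none of the 12 passed either, where 0.0509% of all did, and 6 had an unadjusted p under 0.05 (11.4% of all). Wif1 stood at 0.55 (SE 0.10, adjusted p = 0.094), the brighter Fbn1 probe set at 0.46 (SE 0.09, adjusted p = 0.13), Spon2 at 0.47 (SE 0.15, adjusted p = 0.27) and Scn7a at 0.40 (SE 0.10, adjusted p = 0.19). Each of these 4 was higher at 20 h than at 2 h in sham and at both smoke levels, as 17.5% of all probe sets were, and the Fbn1 arrays at 20 h all lay above those at 2 h (8.58% of all). Both Lox probe sets stayed below their 2 h arrays without overlap (9.42% of all), the brighter at -0.41 (SE 0.11, adjusted p = 0.20). From 6 to 20 h no probe set passed anywhere (0% of all). Of the 12, 1 had an unadjusted p under 0.05 (4.49% of all), Spon2 at 0.66 (SE 0.15), and the arrays of Lox 1368172_a_at at 20 h lay above those at 6 h (3.81% of all).

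**Figure D3:**
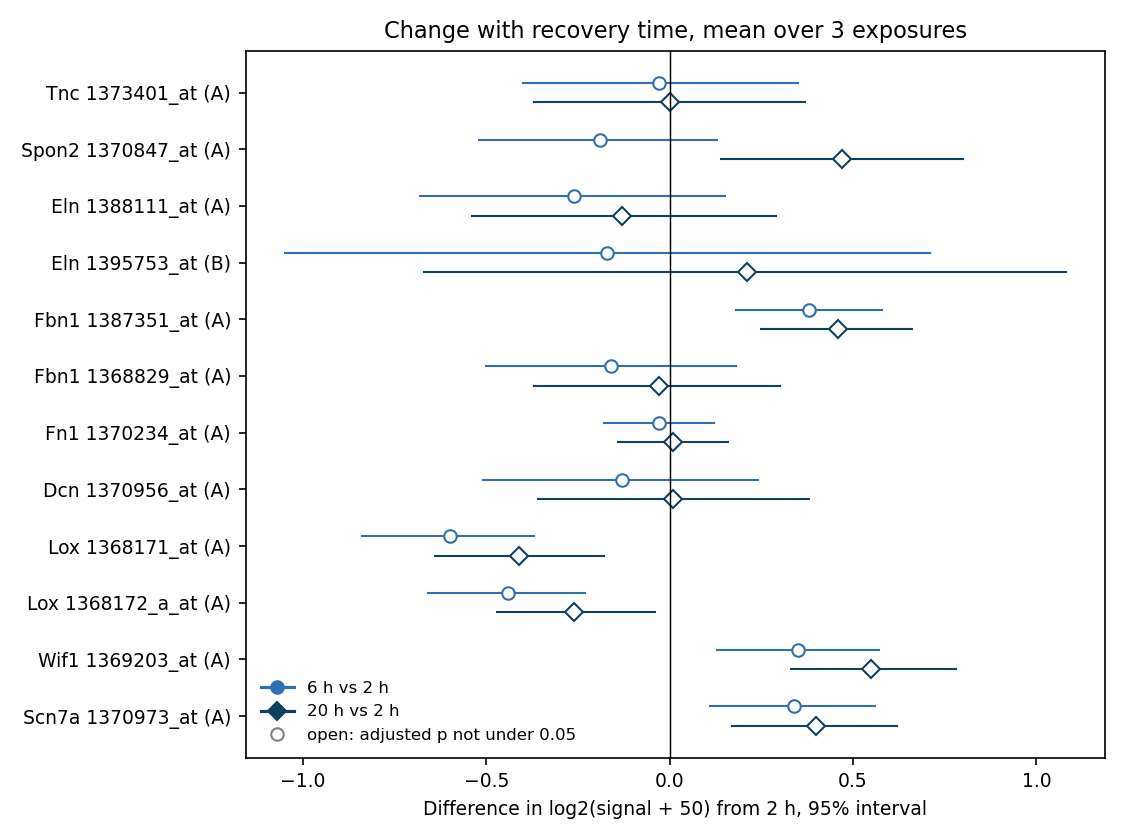
Change against 2 h (difference of log2(signal + 50)) of the 12 probe sets at 6 and 20 h of recovery, as the mean over the 3 exposures with its 95% interval from limma. All points are open since none passed, the Lox probe sets are lowest at 6 h (-0.60 and -0.44), and Wif1 is highest at 20 h (0.55).

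Whether the smoke effect itself differed between times was tested with both smoke levels together against sham. Its error is the spread between 300 and 600 µg/l within a time and holds no measured variation of sham arrays. None of the 12 passed for 6 h minus 2 h (0% of all), and 3 had an unadjusted p under 0.05 (6.27% of all), the Eln probe sets and Spon2. For the A probe set of Eln, smoke minus sham was -0.79 at 2 h, 0.13 at 6 h and -0.87 at 20 h, and the 6 h minus 2 h difference was 0.92 (SE 0.19, limma adjusted p = 0.48). For the B probe set it was -0.54, 1.04 and -0.64, with a difference of 1.58 (SE 0.61, limma adjusted p = 0.75). Both smoke arrays were thus below sham at 2 and 20 h and above it at 6 h in both probe sets of this gene, on separate array types, a pattern that 4.27% of all probe sets had. On type B, the sham and 300 µg/l arrays at 2 h were unusually alike, and which of them is affected, if either, cannot be told. There the difference of 300 µg/l from sham at 2 h was only -0.09. Both types were hybridised for the same 9 conditions, so they are not independent samples.

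For Spon2, smoke minus sham was -1.61 at 2 h, -0.79 at 6 h and -1.16 at 20 h, and the 6 h minus 2 h difference was 0.82 (SE 0.25, adjusted p = 0.68). At 20 h minus 2 h none of the 12 passed (0.0102% of all) and none had an unadjusted p under 0.05 (3.45% of all). The smoke effects at 2, 6 and 20 h were -1.08, -1.02 and -0.40 for Tnc, -0.74, -0.82 and -0.41 for Wif1, and -0.75, -0.57 and -0.31 for Scn7a. All 3 were nearest to 0 at 20 h, with 20 h minus 2 h differences of 0.69 (95% interval -0.02 to 1.39), 0.33 (-0.03 to 0.70) and 0.44 (-0.08 to 0.96) whose intervals include 0. The smoke samples at 20 h are those with conflicting labels, and the smoke arrays of Tnc lay under the filter at every time.

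The genes around these 9 in the same structures mostly did not pass. Counts over lists use 1 probe set per gene, the brightest, and the median change of all 10165 genes at 600 µg/l was -0.0043, with 0.128% of genes called lower, 0.62% called higher and 51.1% below 0. Of 19 tested elastic fibre and microfibril genes, 1 fell at 600 µg/l, 18 did not pass and 15 stood below 0, with a median of -0.22. Eln, Fbn1 and Lox themselves are among the 19 and among those below 0. The gene that fell was Loxl1, a lysyl oxidase that cross-links elastin, at -0.50 (SE 0.09, adjusted p = 0.047). Its signals at 2, 6 and 20 h were 670.0, 820.2 and 816.7 in sham, 433.0, 498.3 and 561.2 at 300 µg/l, and 413.1, 579.5 and 609.9 at 600 µg/l, with every smoke array below every sham array. Its call was lost under 14 of 22 settings, among them on leaving out any condition (adjusted p up to 0.21). Mfap5, a microfibril-associated glycoprotein, stood at -0.43 (adjusted p = 0.16), Ltbp1, which tethers latent TGF-beta to microfibrils, at -0.22 (adjusted p = 0.44), Mfap4 at -0.20 (adjusted p = 0.42) and the fibulin gene Efemp1 at -0.24 (adjusted p = 0.44).

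Among 10 matricellular and spondin genes, Spon2 fell, Tnc, tested through its sham arrays alone, was called lower, and the other 8 did not pass. Ccn2, the connective tissue growth factor gene, stood the other way at 0.49 (SE 0.10, adjusted p = 0.084), its signal being 3251.1 to 3816.2 in sham and 4498.2 to 5831.4 at 600 µg/l. The osteopontin gene Spp1 stood at 0.56 (adjusted p = 0.49), Sparcl1 at -0.28 (adjusted p = 0.39) and the periostin gene Postn at -0.19 (adjusted p = 0.47). In the list of fibronectin and tenascin genes with their receptors, Tnc, a ligand with the same limit, was the 1 of 11 called, and none of the integrin and syndecan receptor genes passed, the largest values being -0.23 for Itgb3 and 0.17 for Sdc4. None of 8 small leucine-rich proteoglycan genes, the family of Dcn, passed, with a median of -0.08 and a range of -0.19 to 0.03.

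Of 26 Wnt ligands, inhibitors, receptors and targets, Wif1 fell and 25 did not pass, with a median of -0.06. Axin2, a feedback target of Wnt signalling, stood at -0.20 (adjusted p = 0.55), the transcription factor gene Tcf7 at -0.34 (adjusted p = 0.23), and the inhibitor genes Dkk3 at -0.24 (adjusted p = 0.31) and Frzb at 0.26 (adjusted p = 0.61). None of 16 TGF-beta ligands, receptors and targets passed, with a median of 0.04, Tgfb1 at 0.21 (adjusted p = 0.45) and Tgfbr1 at 0.25 (adjusted p = 0.43). Of 12 sodium channel subunit genes on the arrays only 3 were bright enough to test, Scn7a among them. The accessory subunit gene Scn3b stood at -0.47 (adjusted p = 0.27) and Scn4b at -0.14 (adjusted p = 0.80). At 300 µg/l no gene of these 7 lists passed, with Loxl1 at -0.58 (adjusted p = 0.077).

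Most markers of structural cell types did not pass. Of 15 fibroblast markers 1 rose at 600 µg/l and 14 did not pass, with a median of -0.20 and 11 below 0. The riser was Vim, an intermediate filament gene that macrophages and endothelial cells also express, at 0.43 (SE 0.06, adjusted p = 0.017, lost under 10 of 22 settings, among them on leaving out any sham or 600 µg/l condition). Col1a1 stood at -0.34 (adjusted p = 0.28), Col3a1 at -0.24 (adjusted p = 0.33), Col1a2 at -0.23 (adjusted p = 0.37) and the dermatopontin gene Dpt at -0.24 (adjusted p = 0.35). The summed signal of the 18 fibroblast markers was 41261 to 43640 in sham, 38481 to 41945 at 300 µg/l and 40030 to 42226 at 600 µg/l, ranges that overlap. Without Vim, a choice made after its rise was seen, the other 17 summed to 34270 to 36812 in sham. At 300 µg/l they summed to 29939 to 32742 and at 600 µg/l to 30484 to 32169. Every smoke array then lay below every sham array, a separation that depends on that choice. Of the 15 tested markers 4 stood above 0, Vim, Fgf10 (0.36), Plin2 (0.23) and Tcf21 (0.03). None of 9 smooth muscle markers passed (median -0.05), with Smtn at -0.52 (adjusted p = 0.089), and none of 8 endothelial markers passed (median -0.18, 7 below 0), with Emcn at -0.38 (adjusted p = 0.14).

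Some macrophage markers rose. Of 6 tested, 3 rose at 600 µg/l, Mmp12 (log2 1.51, adjusted p = 0.045), Gpnmb (1.30, adjusted p = 5.2e-04) and Cd68 (1.17, adjusted p = 5.2e-04). The other 3 did not pass, Mrc1 at 0.38 (adjusted p = 0.21), Lyz2 at 0.03 (adjusted p = 0.87) and Cd163 at -0.16 (adjusted p = 0.73), and the list's median was 0.77. The summed signal of the 7 macrophage markers on the arrays was 26492 to 27053 in sham, 30238 to 31746 at 300 µg/l and 33045 to 36674 at 600 µg/l, with no overlap between exposures. Gpnmb and Cd68 kept their calls under all settings, and Mmp12 lost its call under 10 of 22, among them on leaving out any sham condition. None of 9 alveolar type 2 markers passed (median 0.09), with overlapping sums of 79787 to 90205 in sham and 83651 to 94777 at 600 µg/l. The summed signal of the 8 endothelial markers was 28871 to 32850 in sham, 28508 to 29839 at 300 µg/l and 27116 to 28624 at 600 µg/l. That of the 4 mesothelial markers on the arrays was 4777 to 5248, 4497 to 4874 and 4202 to 4284. In both lists the 600 µg/l range lay below sham without overlap, while the 300 µg/l range overlapped sham. Such sums weigh bright markers most, in the mesothelial list Krt19, at 2848.7 to 3113.8 in sham. How often sums over other genes separate in this way was not examined. The part of fibroblast, macrophage, endothelial and mesothelial RNA in the falls of Spon2, Wif1, Scn7a and Tnc was not tested. Of 3 mesothelial, 2 cartilage and 3 Schwann cell markers tested none passed, with medians of -0.19, -0.20 and -0.10. No marker was at 0 on any array. Wt1 of the mesothelium, 6 of 9 cartilage markers with Acan and Comp among them, and Sox10 and Ngfr of Schwann cells stayed under the filter on every array.

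**Figure D4:**
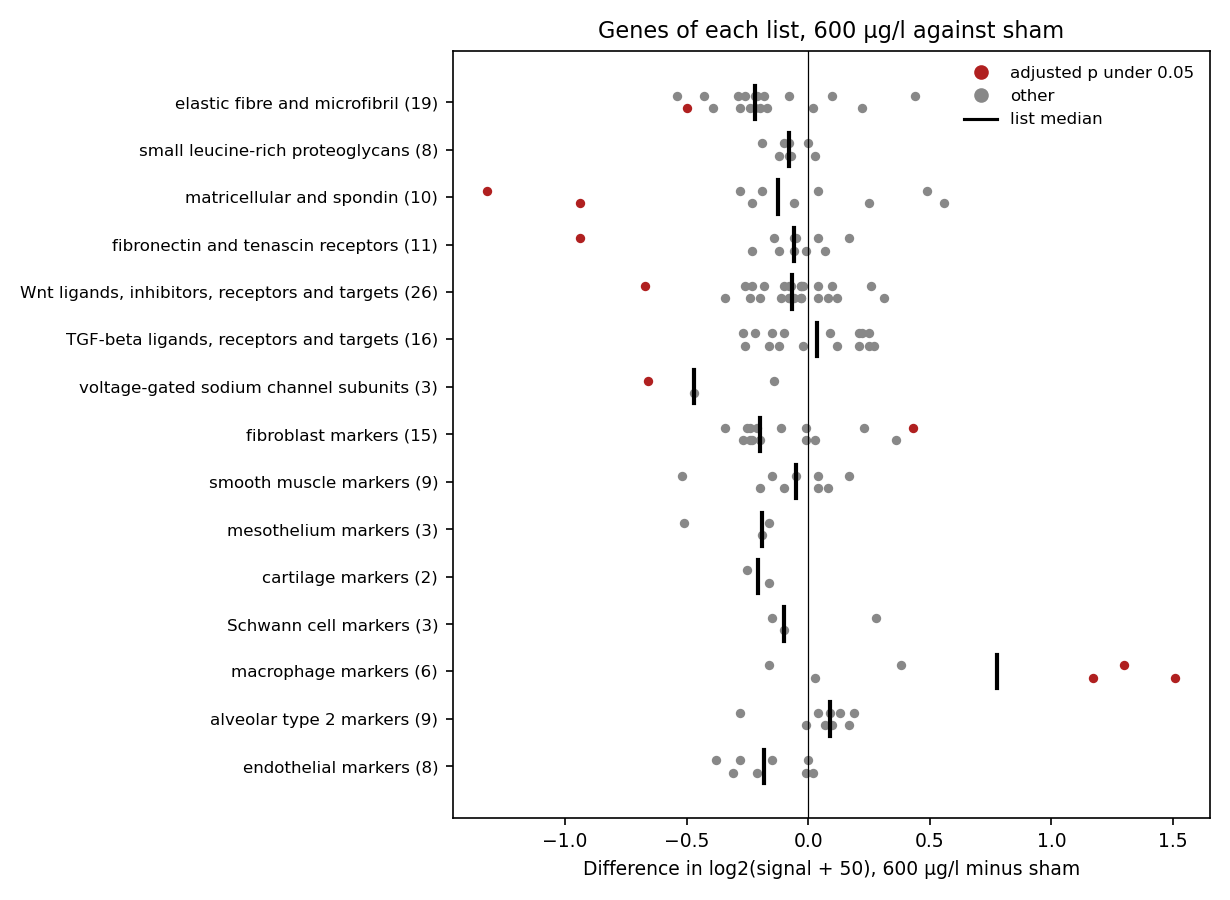
Change at 600 µg/l against sham (difference of log2(signal + 50)) of each tested gene, 1 point per gene (brightest probe set), by gene list with the number tested in brackets. Genes past the threshold are red and the bar is the list's median. Matrix lists lie mostly slightly below 0, with Spon2 at -1.32 and Tnc at -0.94 apart from the others, and macrophage markers reach 1.51.

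Across the 9 arrays of type A, the probe sets of Wif1 and Scn7a went most alike (r = 0.95 of log2(signal + 50)), followed by Wif1 with the brighter Fbn1 probe set (r = 0.93) and Scn7a with the same (r = 0.86). Tnc correlated with Scn7a (r = 0.83), Spon2 (r = 0.82) and Wif1 (r = 0.79), and Spon2 with Wif1 (r = 0.81) and Scn7a (r = 0.80). The Lox probe sets correlated with each other (r = 0.80) and the Eln probe sets, on different types, at r = 0.61. These points share the same 9 conditions and the coefficients describe them only.

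Each gene was compared with 8409 other probe sets on type A (8408 for Fbn1 and Lox, which have a second there). The genes most like each of the 9, by the same coefficient over the 9 arrays, were the following. For the brighter Fbn1 probe set the closest was Col1a1 (r = 0.979), followed by the endothelial gene Emcn (r = 0.957) and Srsf5 (r = 0.952). For Wif1 they were Emcn (r = 0.967), Loxl1 (r = 0.959) and Maged1 (r = 0.952). For Tnc they were Fmc1 (r = 0.962), the collagen VI gene Col6a1 (r = 0.948) and Mknk1 (r = 0.945). Spon2 went most like Ptk2, which encodes focal adhesion kinase (r = 0.962), Cadm1 (r = 0.956) and the guanylate cyclase subunit gene Gucy1b1 (r = 0.952). Scn7a went most like Serpinb9 (r = 0.98), Htt (r = 0.974) and the endothelial receptor gene Tie1 (r = 0.971). The closest to the A probe set of Eln were Trappc6b (r = 0.937), the circadian gene Clock (r = 0.936) and Medag (r = 0.931). Lox 1368171_at was closest to Dcaf11 (r = 0.937), Fn1 to Atg2b (r = 0.955) and Dcn to Serpinb6a (r = 0.933).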

How the data were processed

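The labels' protocols state that total RNA from lung was labelled with biotin for Affymetrix arrays. The authors deposited linear signal intensity, and the submitters' processing notes name MAS5. Its version and detection calls are not given in the sources used here. The authors' scaling was kept: without the highest and lowest 2% of values, every array's mean was 500.09 to 500.1.

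Symbols came from platform annotation updated through Entrez identifiers. Of 15923 A probe sets, 12789 had 1 symbol, 312 several and 2822 were unlisted, and of 15333 B probe sets 7570, 100 and 7663. A probe set was tested if 3 or more of its 9 arrays reached the 40th percentile of the type, 183.8 for A and 238.7 for B. Controls (57 per type) were dropped, and 100 on both types were tested on A.

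Values were analysed as log2(signal + 50) by lmFit and eBayes with an intensity trend (limma 3.58.1, R 4.3.3) per type, on 19638 probe sets, with Benjamini-Hochberg adjustment over both types, a threshold of 0.05 and two-sided tests. The model held exposure and recovery time (4 residual degrees of freedom), or smoke, time and their interaction (3). Fits were also run on simulated data with a common spread and changes in bright probe sets only. That run does not cover dim probe sets or changes with time. Alternatives changed scaling, pseudocount, filter, trend, adjustment, model or arrays.

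The genes, lists and tests were chosen with earlier results of these data known. Named were all 12 probe sets, from each list genes past the threshold and up to 4 more by adjusted p, and the 3 genes most like each. Only some of these are printed, chosen after their values were seen.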

Additional observations from a re-analysis of the deposited data

Results flagged for a closer look

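The following differences were picked out because every smoke array moved one way against sham at one recovery time and the opposite way at another. For the A probe set of Eln, the smoke effect at 6 h minus that at 2 h was 0.92 (SE 0.19, limma adjusted p = 0.48). For the B probe set of Eln it was 1.58 (SE 0.61, limma adjusted p = 0.75), which rests on the B array labelled sham at 2 h that stood apart. Each sham value is a single array, and at 6 h the sham array of type A was at 532.9, against 1021.3 and 967.2 at the other times. For Fbn1 1368829_at, the smoke effect at 20 h minus that at 2 h was 0.58 (SE 0.32, limma adjusted p = 1.0). The 20 h smoke samples carry conflicting labels, and the other Fbn1 probe set, 1387351_at, gave 0.04 (SE 0.19) for the same difference.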

How the results depend on the processing

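At 600 µg/l against sham, 1 to 4 of the 12 probe sets passed when each condition was left out in turn. Only Spon2 passed without sham at 2 h and without 600 µg/l at 2 or 6 h. Without sham at 6 h the 2 that passed were Spon2 and the A probe set of Eln, the latter not called with all arrays. The count was 2 with a linear dose trend, 1 with no filter, 2 with no intensity trend and 1 with only the exposures compared in the fit. At 300 µg/l it was 0 to 1 leaving out conditions, 2 with adjustment within each type, 2 with only the brightest probe set of each gene and 1 with median scaling. In the test of any exposure it was 1 to 2 leaving out conditions (2 without sham at 6 h or 600 µg/l at 20 h, otherwise 1), 0 with no filter, 1 with no intensity trend and 0 without the 20 h conditions. Over all probe sets, calls at 600 µg/l ranged from 35 to 143 (101 as reported) and at 300 µg/l from 1 to 29 (9 as reported). For the 12 probe sets, 90 of 96 results kept their call status under every setting that tested them, no called value turned its direction, and 40 results, none called under the settings concerned, changed sign somewhere. The fits compare exposures within recovery times, and no further pairing was used, since the labels carry no replicate numbers. Signals near the filter, those of Tnc above all, limit what its change can show, since no detection calls were used here.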
